A study of Mus musculus with 7 samples.

Results

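Cathepsins are the proteases that break down proteins in lysosomes, the acidic compartment in which macrophages digest what they take up. The transcripts of 10 lysosomal cathepsins were followed here: Ctsa, Ctsb, Ctsc, Ctsd, Ctsf, Ctsh, Ctsl, Ctso, Ctss and Ctsz. They were chosen by name and found by Ensembl gene ID among the 24084 genes listed in the deposited files, and all 10 were among the 16226 genes tested. RNA came from tumor-associated macrophages, collected as F4/80+ cells by flow sorting from established subcutaneous Lewis lung carcinoma (LLC) tumors, a transplanted mouse lung cancer line. The 3 Dicer1-deleted libraries came from LysM-Cre;Dicer–/– mice, which are homozygous for LysM-Cre and for the floxed Dicer allele. The 4 control libraries came from LysM-Cre;Dicer+/+ mice, so both groups carried LysM-Cre and bore the same tumor. LysM-Cre drives recombination in cells of the myeloid lineage, not in these macrophages alone. All 7 titles also carry CSF1R, which the labels do not explain. Age, sex and the number of mice behind a library are not stated, so the p-values measure only the spread between these libraries. The comparison asks how loss of Dicer1, the nuclease that cuts precursor hairpins into mature microRNAs, goes with macrophage expression, and here with that of the cathepsins.

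Most cathepsins are cysteine proteases of the papain family, whereas Ctsd encodes an aspartic protease and Ctsa a serine carboxypeptidase. They are made as inactive precursors, are carried from the Golgi to endosomes by mannose 6-phosphate receptors and related sorters, and become active as the pH falls. In macrophages they degrade engulfed material, and cathepsins S and L are known for cutting the invariant chain that blocks the peptide groove of MHC class II molecules. Cystatins and some serpins inhibit them. In tumors, macrophages are a known source of cathepsins B, S and Z.

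Depth was 43.0 to 51.2 M uniquely placed reads per library. Dicer1 itself was at 7.85, 6.86 and 7.85 CPM (reads per 1 M reads of the library, scaled by TMM) in Dicer1-deleted replicates 1 to 3 and at 15.7, 15.8, 18.6 and 17.1 CPM in control replicates 1 to 4, without overlap. Its log2 fold change was -1.16 ± 0.23 (SE), with an adjusted p of 0.150 in edgeR's quasi-likelihood test and of 0.000133 in DESeq2. Counts over the whole gene do not separate the deleted part from the rest of Dicer1. Macrophage markers were high in both groups, with Adgre1, which encodes F4/80, at 233 to 1072 CPM and Csf1r at 494 to 809 CPM. Dicer1-deleted replicate 2 was the lowest of the 7 libraries in the gene length implied by RPKM (reads per kilobase and per 1 M reads). The mean of this length over genes above 20 RPKM, weighted by RPKM, was 933 bases there. It was 1192 and 1160 bases in control replicates 1 and 2, and 1436 to 1464 bases in the remaining libraries. The members' fold changes are also given without Dicer1-deleted replicate 2. Across all genes edgeR called 4 at an adjusted p under 0.05, and DESeq2 called 397, with 0.776% of its genes higher and 1.41% lower. In bulk RNA, fewer cells of a type and less RNA per cell cannot be told apart.

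Levels of 9 of the 10 cathepsins overlapped between the groups. The exception was Ctsh, which was higher in all 3 Dicer1-deleted libraries. No member was called by edgeR, where 0.0247% of all genes were called, and 1 member (Ctsh) had an unadjusted p under 0.05, against 8.01% of all genes. DESeq2 called 1 member, Ctsh again and as higher, where it called 2.19% of all genes in either direction and 0.776% as higher. The count of 1 in 10 without overlap stands beside 9.31% of all genes, of which 3.86% were higher in the Dicer1-deleted libraries. A single gene in 10 is thus near the background for overlap. The median log2 fold change of the members was -0.07, with 2 above and 8 below 0, and that of all genes tested was 0.03. Over all genes tested, 8529 values were positive and 7697 negative. Several of the members' negative values lay near 0 and changed sign in other fits. Together the members held 2.43% to 3.16% of the uniquely placed reads in the Dicer1-deleted libraries and 2.60% to 3.56% in the controls.

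**Figure D1:**
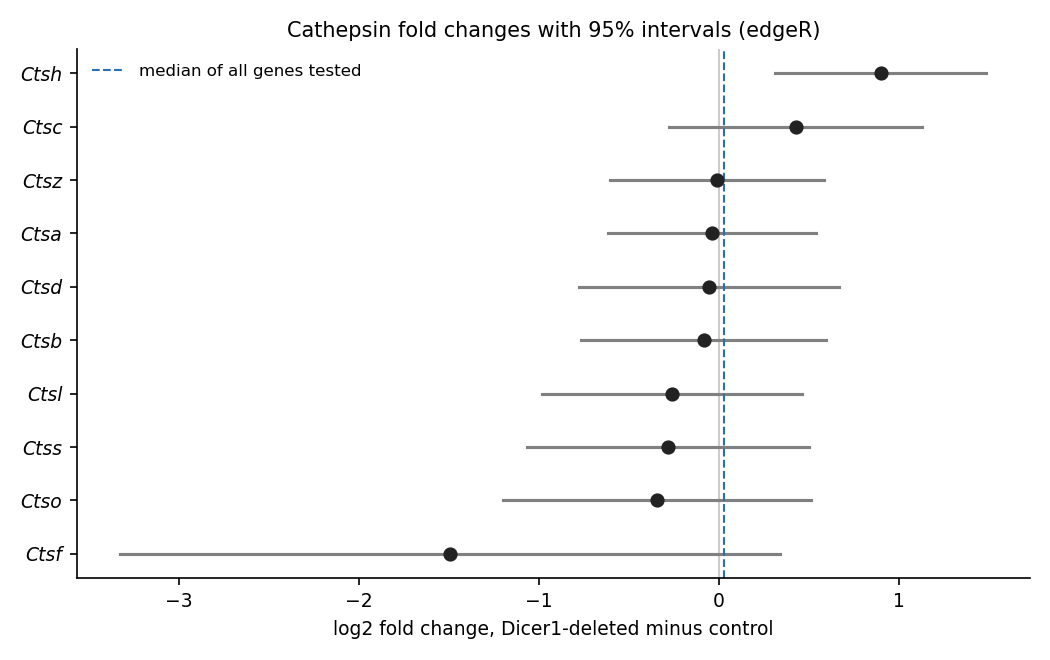
Log2 fold change of each cathepsin, Dicer1-deleted minus control, from edgeR (points) with its unadjusted 95% interval (grey bars), and the median of all genes tested as a dashed line. The interval of Ctsh, 0.31 to 1.49, lies above 0, while those of the other 9 members cross 0.

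Cathepsins can be ranked against each other only per length, for which the authors' RPKM values (reads per kilobase and per 1 M reads) were used. In the controls Ctss was the most abundant member at 5593 ± 1446 RPKM (SD, n = 4), and it ranked between 5 and 27 among all listed genes over the 7 libraries. Ctsb followed at 1786 ± 387 RPKM, below Ctss in all 4 control libraries. Ctsz at 1161 ± 113 RPKM, Ctsl at 1133 ± 250 RPKM and Ctsd at 1113 ± 308 RPKM came next, and these neighbours did not separate beyond their spread. Ctsc at 805 ± 42.7 RPKM, Ctsa at 276 ± 21.1 RPKM, Ctsh at 126 ± 12.3 RPKM, Ctso at 17.6 ± 2.24 RPKM and Ctsf at 2.22 ± 1.16 RPKM each stayed below the member before in all 4 controls. The place of Ctsl depends on the length used. The deposited RPKM of Ctsl implies a length of 1975 bases, while its annotated exons together cover 6489 bases (GENCODE M21), over which Ctsl would be at 345 ± 76.1 RPKM, between Ctsc and Ctsa in all 4 controls. Ctsb (4738 implied, 6051 annotated) would be at 1398 ± 303 RPKM and would overlap Ctsz and Ctsd, and Ctsh (3452 and 4499) at 96.8 ± 9.44 RPKM would keep its place. On the deposited scale the abundant members were an elastin-cutting endopeptidase (Ctss), the broad Ctsb, the carboxypeptidase Ctsz, the endopeptidase Ctsl and the aspartic Ctsd. Ctsk, which is no member, was at 1204 ± 1009 RPKM in the controls (2172, 135, 1951 and 557 in replicates 1 to 4). Its mean there was thus above that of Ctsz, with a wide spread.

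In the Dicer1-deleted libraries the order was the same at its top and bottom. Ctss stood at 4381 ± 612 RPKM (SD, n = 3), Ctsb at 1644 ± 352 RPKM and Ctsz at 1117 ± 281 RPKM. The middle changed places, with Ctsc at 1067 ± 437 RPKM and Ctsd at 1053 ± 285 RPKM now above Ctsl at 901 ± 136 RPKM, but the values of Ctsb, Ctsz, Ctsc, Ctsd and Ctsl overlapped from each to the next. Ctsa at 258 ± 6.46 RPKM, Ctsh at 224 ± 23.9 RPKM, Ctso at 13.8 ± 7.74 RPKM and Ctsf at 0.783 ± 1.05 RPKM followed. Ctsh lay closer to Ctsa here than in the controls, though below it in all 3 libraries.

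**Figure D2:**
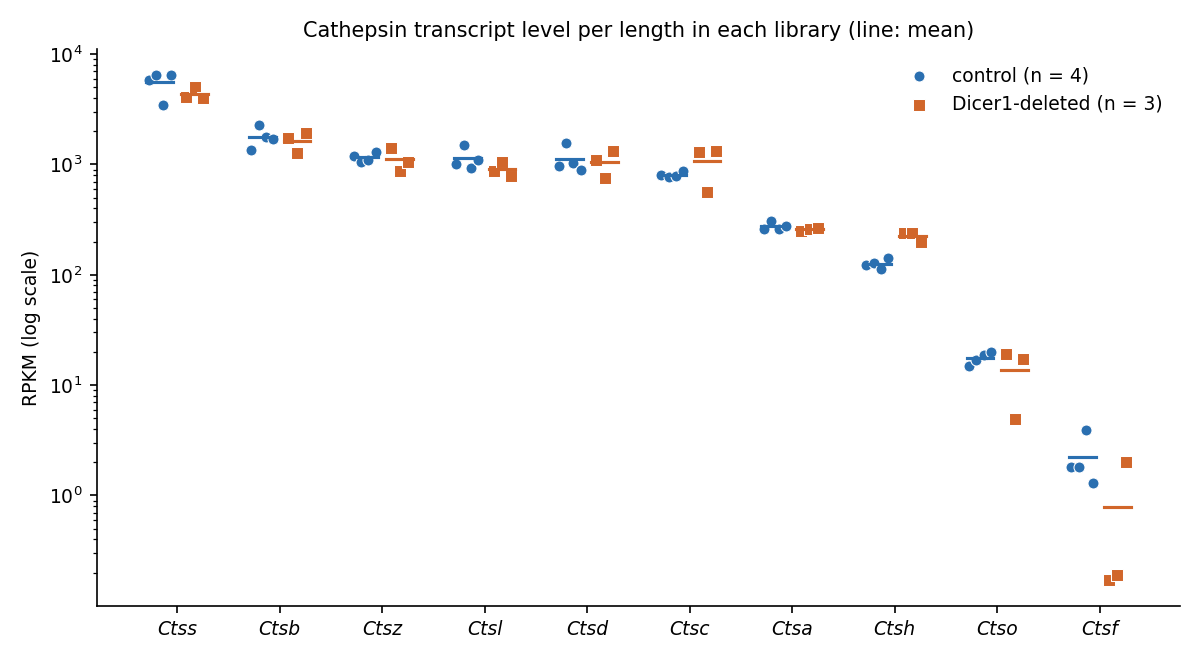
Level per length of the 10 cathepsins in RPKM on a log axis, with each library as a point (blue circles, 4 controls; orange squares, 3 Dicer1-deleted) and group means as lines. Ctss leads in both groups, and Ctso and Ctsf are far below the others.

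Ctsh encodes cathepsin H, an aminopeptidase with some endopeptidase activity. Its level was 823, 980 and 662 CPM in Dicer1-deleted replicates 1 to 3 and 427, 472, 372 and 493 CPM in control replicates 1 to 4. Every Dicer1-deleted library was above every control, and the lowest of the former exceeded the highest of the latter. The means of Ctsh were 822 ± 159 CPM (SD, n = 3) and 441 ± 53.7 CPM (SD, n = 4), a 1.86-fold ratio. The log2 fold change of Ctsh was 0.90 ± 0.26 (SE), with a 95% interval of 1.24-fold to 2.80-fold before adjustment. It did not pass edgeR's test after adjustment over all genes (unadjusted p = 0.00701, adjusted p = 0.313) and passed DESeq2's (adjusted p = 0.0288). The DESeq2 call for Ctsh was kept in 1 of the 7 fits that each left out a library, the one without Dicer1-deleted replicate 3. Over these fits of fewer samples the DESeq2 log2 fold change of Ctsh ranged from 0.75 to 1.06 and its adjusted p from 0.0332 to 0.192. Without Dicer1-deleted replicate 2 the edgeR log2 fold change of Ctsh was 0.74. Among libraries whose titles carry the code L5 (1 Dicer1-deleted, 3 controls) the log2 ratio of means was 0.93, and among those with L4 (2 and 1) it was 0.80. The meaning of that code is not given.

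Some summed levels of cell type markers were also higher in the Dicer1-deleted libraries. The summed CPM of the 8 listed neutrophil markers found in the files was 133 to 210 in the Dicer1-deleted libraries and 60.7 to 84.0 in the controls, with most of it from Mmp8, while Ly6g was at 0 to 0.102 CPM. DESeq2 called Mmp8 higher and no other neutrophil marker. The 7 B cell markers summed to 112 to 155 CPM and to 35.7 to 75.4 CPM, mostly Ighm, with Pax5 at 0 to 0.051 CPM, and DESeq2 called Ighm and Cd79b higher. The 6 endothelial markers summed to 43.3 to 77.1 CPM and to 8.08 to 24.4 CPM, mostly Pecam1, which DESeq2 called higher. Of the 9 dendritic cell markers, Xcr1 and Batf3 were called higher and Ccr7 lower by DESeq2, and the sum was 12.1 to 15.3 CPM and 9.02 to 141 CPM. The 11 macrophage markers summed to 10827 to 17270 CPM and to 8970 to 17178 CPM, and DESeq2 called 1 of them, Lyz2, as lower. The T and NK cell list summed to 12.5 to 29.2 CPM and to 14.1 to 19.98 CPM, the tumor epithelial list to 5.79 to 9.09 CPM and to 2.11 to 14.1 CPM, and the fibroblast list to 20.1 to 29.4 CPM and to 16.4 to 34.1 CPM. In these 3 lists DESeq2 called Nkg7 higher and Cd2 lower (T and NK cells), Krt7 lower (tumor epithelium) and no fibroblast marker. The part of these cells in the level of Ctsh was not tested.

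A processed pseudogene of Ctsh moved with it. Gm5398, on chromosome X at 77289832 to 77290815 (GRCm38, minus strand), matched Ctsh transcript sequence at 88.9% of 969 aligned bases and was listed with its own unique counts. It stood at 108, 106 and 84.4 CPM in Dicer1-deleted replicates 1 to 3 and at 52.4, 59.8, 49.2 and 61.2 CPM in control replicates 1 to 4, again without overlap. Its level was 10.9% to 13.2% of that of Ctsh in every library. Gm5398 had a log2 fold change of 0.84 ± 0.23 (SE), with an adjusted p of 0.271 in edgeR and 0.0206 in DESeq2. Reads of a gene and a copy this similar can be split between them by the counting, so the Gm5398 value is no second measurement independent of Ctsh. With both added, the means were 921 and 497 CPM, a ratio of 1.85. Ctsb had such a copy too: Gm14032, on chromosome 2 at 55292065 to 55293090 (plus strand), matched at 88.8% of 1010 aligned bases and stood at 7.44% to 9.29% of Ctsb. The lowest of these shares was that of Dicer1-deleted replicate 2 for both pairs.

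**Figure D3:**
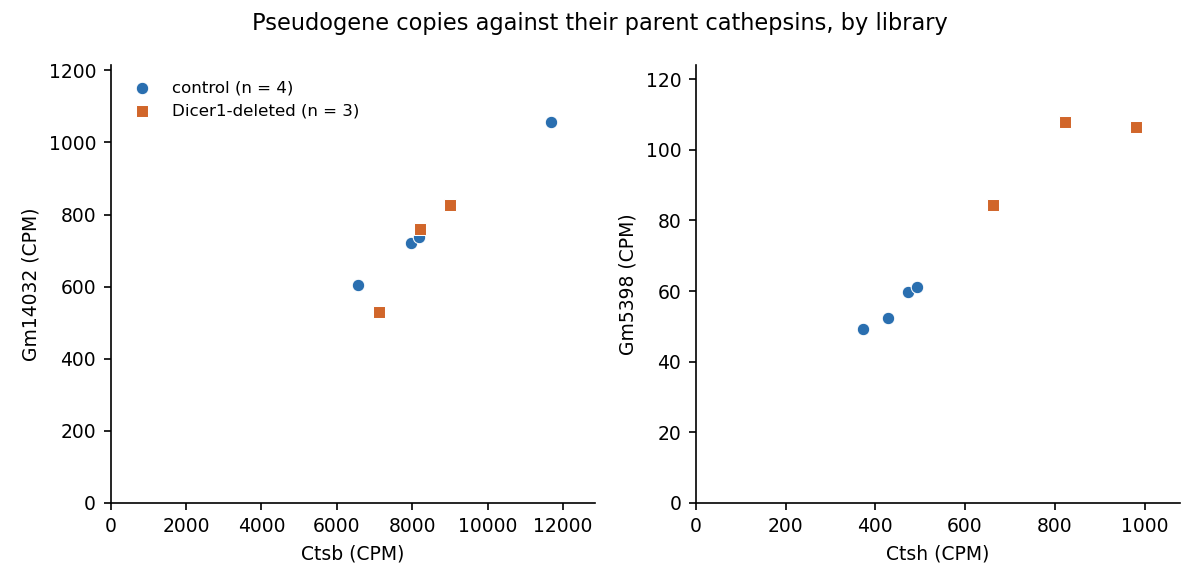
CPM of the pseudogenes Gm14032 and Gm5398 (vertical axes) against their parent genes Ctsb and Ctsh (horizontal axes) in 4 control libraries (blue circles) and 3 Dicer1-deleted libraries (orange squares). Each copy stays near a fixed share of its parent, and for Ctsh and Gm5398 all 3 Dicer1-deleted points lie above and to the right of the controls.

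Ctsc and Ctsz also encode cysteine cathepsins with exopeptidase activity, as does Ctsb, described below. Ctsc encodes dipeptidyl peptidase 1, which activates granule serine proteases by removing a dipeptide. Its level was 7562, 3899 and 7553 CPM in Dicer1-deleted replicates 1 to 3 and 4731, 4757, 4352 and 5043 CPM in the controls. Dicer1-deleted replicates 1 and 3 lay above all controls, and replicate 2 lay below all of them. Ctsc had a mean log2 difference of 0.42 ± 0.31 (SE; adjusted p = 0.927, edgeR). Without Dicer1-deleted replicate 2 it was 0.67, with an adjusted p of 0.371 in edgeR and 0.0966 in DESeq2. Of the proteases that cathepsin C activates, 10 of 12 were listed and 8 stayed under 1 CPM in every library, and Gzmb, the highest, reached 4.36 CPM in Dicer1-deleted replicate 1 and was not called.

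Ctsz, which encodes the carboxypeptidase cathepsin Z (also called X), was at 2052, 1504 and 1480 CPM in Dicer1-deleted replicates 1 to 3 and at 1733, 1614, 1524 and 1894 CPM in the controls. The groups overlapped, because replicate 1 was above all controls and the rest of the group was below them. For Ctsz the difference was -0.01 ± 0.26 on the log2 scale (SE), with a 95% interval of -0.61 to 0.58. A change of either sign within that range was thus not excluded.

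Ctss and Ctsl, the endopeptidases linked to invariant chain processing, were both lower on average in the Dicer1-deleted group but overlapped widely with the controls. Ctss was at 5521, 8248 and 5289 CPM in Dicer1-deleted replicates 1 to 3 and at 8048, 9494, 4515 and 8911 CPM in control replicates 1 to 4. Control replicate 3 was the lowest library of all for Ctss, and Dicer1-deleted replicate 2 reached the level of the other controls. On the log2 scale Ctss differed by -0.29 ± 0.35 (SE; adjusted p = 0.996, edgeR), and the 95% interval ran from 0.477-fold to 1.41-fold. Ctsl was at 1719, 2474 and 1509 CPM in the Dicer1-deleted libraries and at 2030, 3149, 1736 and 2202 CPM in the controls. Its log2 fold change was -0.26 ± 0.32 (SE; adjusted p = 0.996, edgeR). Without Dicer1-deleted replicate 2 both remaining values of Ctsl were under all controls, with a log2 fold change of -0.51 and an adjusted p of 0.614. Without control replicate 2 the log2 fold change of Ctsl was -0.04, and it ranged between these values over the 7 edgeR fits with 1 library left out, none called.

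Ctsb, which cuts proteins both internally and from the carboxyl end, was at 8197, 7113 and 8995 CPM in Dicer1-deleted replicates 1 to 3 and at 6556, 11669, 7971 and 8188 CPM in the controls. All Dicer1-deleted values of Ctsb lay inside the range of the controls. For Ctsb the log2 fold change was -0.09 ± 0.30 (SE), with a 95% interval of 0.588-fold to 1.51-fold. Ctsd, the main aspartic protease of lysosomes, was at 2737, 2263 and 3243 CPM and, in the controls, at 2475, 4228, 2469 and 2253 CPM. Control replicate 2 was high for Ctsd, as it was for Ctsb and Ctsl. The log2 fold change of Ctsd was -0.06 ± 0.32 (SE), and without that control it was 0.21. Ctsa, the carboxypeptidase that also protects lysosomal galactosidase and neuraminidase, was at 1183, 1463 and 1212 CPM and, in the controls, at 1247, 1544, 1179 and 1317 CPM. The groups of Ctsa spanned nearly the same range, and its log2 fold change was -0.04 ± 0.26 (SE).

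Ctso and Ctsf, less studied cysteine cathepsins, were the scarce members. Ctso was at 88.1, 27.0 and 76.6 CPM in Dicer1-deleted replicates 1 to 3 and at 68.8, 82.3, 82.8 and 91.1 CPM in the controls. Only Dicer1-deleted replicate 2 fell outside the control range of Ctso, and the log2 fold change of -0.35 ± 0.38 (SE) became 0.01 without it. Ctsf was at 0.332, 0.457 and 3.84 CPM in the Dicer1-deleted libraries, which is 16, 18 and 180 reads, and at 3.61, 3.86, 7.40 and 2.60 CPM in the controls. Dicer1-deleted replicates 1 and 2 were thus well below all controls, and replicate 3 lay inside their range. For Ctsf the log2 fold change was -1.50 ± 0.81 (SE; adjusted p = 0.764, edgeR, and 0.529, DESeq2). Without Dicer1-deleted replicate 3 it was -3.47 in edgeR (adjusted p = 0.168) and was called lower by DESeq2 (adjusted p = 5.39e-06). Without Dicer1-deleted replicate 1, Dicer1-deleted replicate 2 or control replicate 3 the edgeR log2 fold change of Ctsf was -1.02, -1.04 and -1.11, and neither edgeR nor DESeq2 called it.

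**Figure D4:**
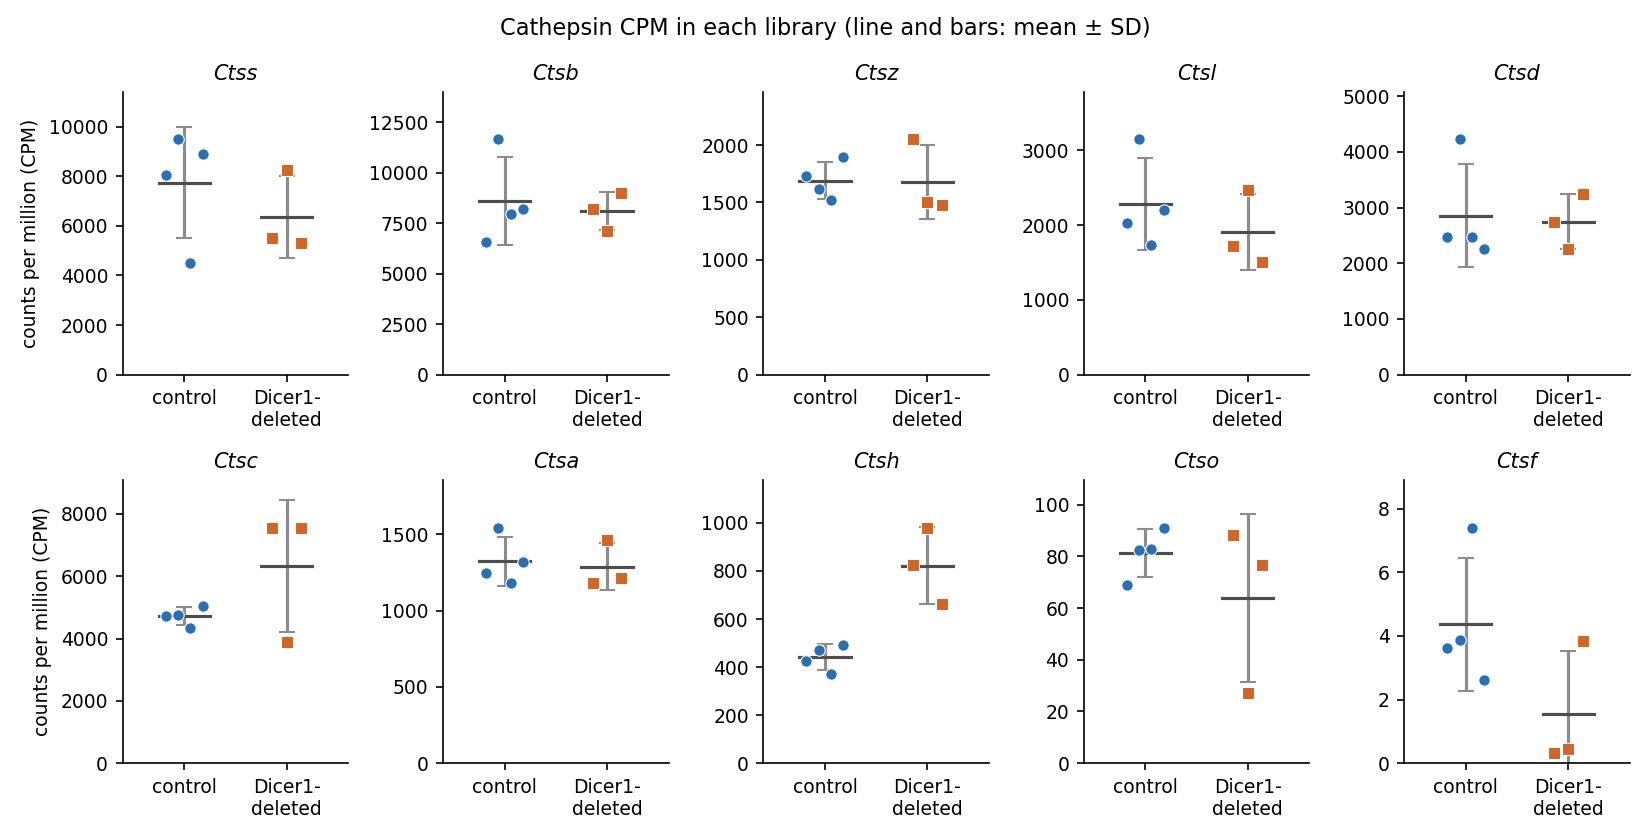
CPM of each cathepsin in every library, with 4 controls (blue circles) and 3 Dicer1-deleted libraries (orange squares), group means as lines and SD as bars, on separate axes that start at 0. The groups separate for Ctsh and overlap for the other 9 members.

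Dicer1-deleted replicate 2, the library with the lowest mean implied length, differed from the rest of its group for several members. Relative to the mean of Dicer1-deleted replicates 1 and 3, it held 0.516 times as much Ctsc, 0.328 times as much Ctso and 0.757 times as much Ctsd. It held 1.53 times as much Ctss, 1.53 times as much Ctsl and 1.32 times as much Ctsh. With it left out, Ctsc and Ctsh were higher and Ctsl lower than all controls, 3 of 10 members without overlap, beside 21.2% of all genes in the same 6 libraries. Without it the edgeR log2 fold changes were -0.53 for Ctss, 0.06 for Ctsd, -0.15 for Ctsa, 0.05 for Ctsz and -0.0033 for Ctsb, none called. The cause of the library's difference was not tested.

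Beyond the 10 members, 3 of 12 other cathepsins were tested, and the counts and medians given for these lists describe lists chosen with results known. Ctsk, the collagen-degrading cathepsin K best known from osteoclasts, was at 138, 61.5 and 89.7 CPM in Dicer1-deleted replicates 1 to 3 and at 3269, 215, 2763 and 831 CPM in the controls. All Dicer1-deleted libraries lay below all controls, but the controls themselves spread widely, with replicates 1 and 3 far above replicate 2. The log2 fold change of Ctsk was -4.20 ± 0.90 (SE; adjusted p = 0.162, edgeR, and 2.24e-06, DESeq2), and it was -2.83 with the L code as covariate. Ctse was at 2.80 ± 1.09 CPM (SD, n = 3) and 1.09 ± 0.741 CPM (SD, n = 4), and Ctsw stayed under 1.17 CPM. Ctsk lies 17424 bases from Ctss on chromosome 3, the nearest tested protein-coding neighbour, and the Ctss groups overlapped.

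Of 14 genes grouped as cathepsin inhibitors, 12 were listed and 7 tested, with a median log2 fold change of -0.67. The group includes serpins, and whether these inhibit any of the 10 members was not examined. DESeq2 called 1, Serpinb6a, as lower. This intracellular serpin was at 89.8, 67.6 and 166 CPM in Dicer1-deleted replicates 1 to 3 and at 346, 620, 268 and 411 CPM in the controls, without overlap. Its log2 fold change was -1.93 ± 0.42 (SE; adjusted p = 0.165, edgeR, and 0.000672, DESeq2). The main cystatins did not pass either test: Cstb was at 1176 ± 678 and 1054 ± 333 CPM and Cst3 at 800.3 ± 365 and 1269 ± 274 CPM in Dicer1-deleted and control libraries. Among the 16 genes of enzyme sorting and activation, 10 had positive fold changes, and DESeq2 called 1. That was Sort1, which encodes the sorting receptor sortilin, at 6.06, 8.49 and 9.05 CPM against 1.76, 2.29, 3.68 and 1.55 CPM. The Sort1 groups did not overlap, with a log2 fold change of 1.76 ± 0.37 (SE; adjusted p = 0.156, edgeR, and 0.00147, DESeq2). Lgmn, the legumain that processes cathepsin precursors, was at 3428 ± 984 and 3189 ± 805 CPM. Psap stood at 2093 ± 422 and 1653 ± 320 CPM, Grn at 1183 ± 150.2 and 1211 ± 345 CPM and Vps35 at 547 ± 352 and 486 ± 203 CPM. No difference in these 4 passed either test.

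The 18 tested subunits of the proton pump, which acidifies lysosomes, had 5 positive and 13 negative fold changes and a median of -0.14. DESeq2 called 1 of them, the isoform Atp6v0d2, at 49.5, 33.9 and 43.1 CPM against 697, 78.4, 763 and 214 CPM. As for Ctsk, controls 1 and 3 were the high ones, and the log2 fold change of Atp6v0d2 was -3.38 ± 0.75 (SE; adjusted p = 0.167, edgeR, and 5.04e-05, DESeq2). With the L code as covariate it was -2.31. Acp5, an acid phosphatase also known from osteoclasts, was likewise highest in controls 1 and 3, at 2382 and 1808 CPM, with 404 ± 87.5 CPM in the Dicer1-deleted group, and was not called. The remaining abundant subunits (Atp6ap1, Atp6v0e, Atp6v1a and Atp6ap2) had log2 fold changes of -0.34, -0.03, -0.56 and -0.44, none called.

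Cathepsins S and L act in MHC class II loading by cutting the invariant chain. Genes of this loading had positive fold changes in 10 of 11 cases and a median log2 fold change of 0.64. Neither edgeR nor DESeq2 called any. At an unadjusted edgeR p under 0.05 there was 1, Ciita. The invariant chain gene Cd74 was at 19353 ± 6111 and 15649 ± 5810 CPM, H2-Aa at 4967 ± 2441 and 3535 ± 1380 CPM, H2-Ab1 at 1915 ± 936 and 971 ± 765 CPM and H2-Eb1 at 2173 ± 393 and 2039 ± 766 CPM. Their groups overlapped. Fold changes of the 30 hydrolases of sugars and lipids were positive for 20, with a median of 0.15. Npc2, Gm2a and Asah1, with Acp5 the most abundant of them, had log2 fold changes of 0.15, 0.07 and -0.15. Of 15 lysosomal membrane genes 7 were positive, with Cd68, Laptm5, Lamp2 and Laptm4a between -0.11 and 0.03. Of 7 other peptidases 3 were positive, with Tpp1 at -0.54, Scpep1 at -0.50, Prcp at -0.28 and Lgmn at 0.10. The 14 autophagy genes had 3 positive and 11 negative values, with Gabarap at -0.14, Map1lc3b at -0.32, Sqstm1 at 0.68 and Atg5 at -0.23. DESeq2 called none in these 5 lists, and edgeR none in any list. At an unadjusted edgeR p under 0.05 there were 1 higher and 3 lower hydrolases, 1 higher membrane gene and 0 peptidases or autophagy genes.

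Mitf, Tfec, Tfe3 and Tfeb, the MiT/TFE factors that drive lysosomal genes, were all tested. Their log2 fold changes were -0.65 ± 0.35, 0.00 ± 0.24, 0.11 ± 0.25 and 0.77 ± 0.51 (SE), and none was called or had an unadjusted p under 0.05 in edgeR.

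**Figure D5:**
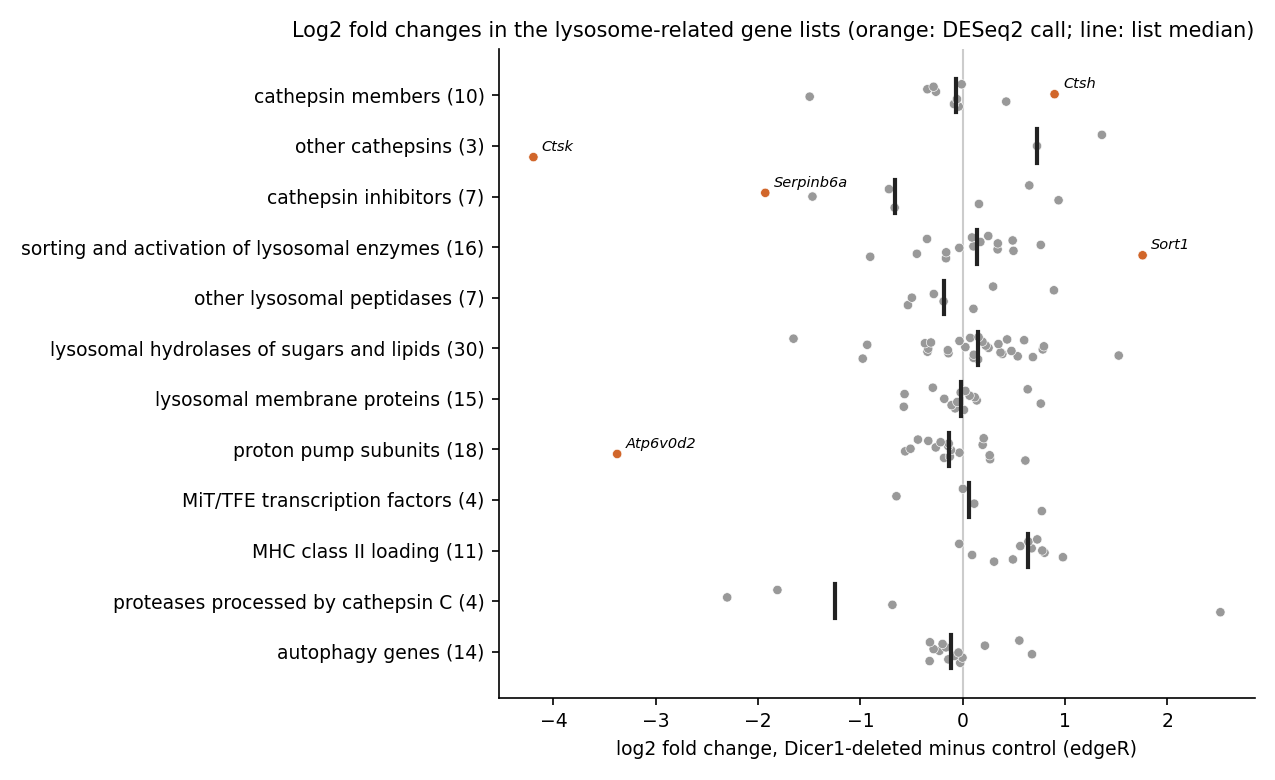
Log2 fold changes (Dicer1-deleted minus control, edgeR) of the tested genes in 12 gene lists, with the number tested in brackets, the list median as a black line and genes called by DESeq2 in orange. The cathepsin members centre near 0, and the called genes Ctsh, Ctsk, Serpinb6a, Sort1 and Atp6v0d2 are each single genes in their lists.

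Some members share bases with other genes, and the library kit keeps no strand, so reads of overlapping genes could be assigned to either. Ctsa (chromosome 2, 164832873 to 164841032, plus strand, GRCm38) overlaps Pltp and Neurl2 on the opposite strand, and Pltp was at 378 ± 258 and 801 ± 201 CPM in Dicer1-deleted and control libraries. Between 5.86% and 9.11% of the expected count of Ctsa came from multiply placed reads, the highest share of the 10, while that of Ctsb was at most 2.45% and that of Ctsh at most 1.84%. Ctsb (chromosome 14, 63122462 to 63145923) overlaps Fdft1, and Ctsz (chromosome 2, 174427493 to 174439039) overlaps Nelfcd. The partners of Ctsb and Ctsz were scarce, with Fdft1 at 14.2 ± 1.54 CPM and Nelfcd at 40.2 ± 5.67 CPM in the controls. So was Hmgb1-ps5, a pseudogene within Ctss, at 14.6 ± 4.17 CPM. Ctsd overlaps the protein-coding Gm49369 on the same strand, Ctsl overlaps Gm47123 and Gm49230, and Ctsc overlaps Gm26522. These partners had no listed counts. Ctsh (chromosome 9, 90054152 to 90076089, plus strand) overlaps no annotated gene. Its nearest tested protein-coding neighbour, Morf4l1, lies 15576 bases away and was at 62.3 ± 1.11 and 61.0 ± 5.18 CPM, a log2 fold change of 0.03 ± 0.22 (SE). The closest neighbour of any member was Tdo2, 365 bases from Ctso, at 1.23 ± 0.745 CPM in the controls. The other neighbours tested within 50 kb had log2 fold changes of -0.85 (Zswim1, beside Ctsa), -0.86 (Neil2, beside Ctsb), -0.61 (Syt8, beside Ctsd), 0.03 (Ccs, beside Ctsf), -0.45 (Aaed1, beside Ctsl) and 0.33 (Atp5e, beside Ctsz), and neither edgeR nor DESeq2 called any of them.

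Likeness between genes was measured as the mean over the 7 libraries of the absolute difference of centred log2 CPM, where 0 is the same pattern. Among 3366 genes of at least 50 CPM, Sqor was the nearest to Ctss (0.128), the pseudogene Gm14032 the nearest to Ctsb (0.0728) and Tbpl1 the nearest to Ctsz (0.0708). Laptm5, a lysosomal membrane protein of leukocytes, was next for Ctsz (0.0772). Within the 10 members, Ctsb and Ctsd had the most similar patterns (0.124), followed by Ctsa with Ctsl (0.165) and Ctss with Ctsl (0.166). The nearest member to Ctsh was Ctsc (0.346). These distances share libraries and depth and describe 7 points each.

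Because Dicer1 makes mature microRNAs, the 3′ UTRs of the members (longest annotated, GENCODE M21) were searched for matches to bases 2 to 8 of 18 microRNAs chosen as common in myeloid cells (transcript strand only), among 12094 UTRs in all. Ctsh and Ctss had no match, with UTRs of 332 and 218 nt, the shortest of the 10. Ctsl, with the longest UTR at 4761 nt, had matches to 6 of the microRNAs, Ctsa to 5, Ctsb to 4. Ctso had matches to 3, Ctsf to 2, and Ctsd and Ctsz to 1 each. The deposited RPKM of Ctsl implies only 1975 bases in all, so its matches may lie outside the counted length. Each of the 18 seeds matched 6.8% to 24.5% of all UTRs searched, whose median length was 1144.5 nt. The miR-155 letters AGCATTA were in Ctso and in 9.19% of all UTRs searched. Repeated matches to the same seed were not particular to Ctso, and occurred among others in Ctsa (miR-125b), Ctsb (miR-24) and Ctsl (miR-223). The mature miR-155 sequence is from RefSeq, with the seed in capitals. Its 2 sites in Ctso, shown as an example, stand in 30 bases of the UTR with the match in capitals.
mmu-miR-155-5p: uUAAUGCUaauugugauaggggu
Ctso, chr3:81954344-81954350, plus strand: tcatactcaactctaAGCATTAtgcacctt
Ctso, chr3:81956437-81956443, plus strand: aaattttttcaaataAGCATTAtggagagg
The coordinates are those of the 7 matched bases in GRCm38. A match describes letters and not repression, and its relation to the fold changes was not tested.

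Lysosomal genes are known for the letters CACGTG near their start sites, which MiT/TFE factors bind. Promoters of 300 bases (250 before to 50 after the start, RefSeq, GRCm38.p6) were at hand for 8 of the 10 members, Ctsb and Ctsh not among them. The letters, which read the same on both strands, were in promoters of 4 of these 8, Ctsa, Ctsd, Ctsf and Ctsl. Counted by promoter, they were in 4 of the 9 of these members and in 7.15% of 32851 promoters. The longer form TCACGTGA, which contains the shorter, was in those of Ctsa and Ctsd and in 0.974% of all. The windows show each match in capitals, on the strand of the gene, and the first of Ctsd is shorter because it meets the edge of the promoter.
Ctsa, chr2:164833749-164833778, plus strand: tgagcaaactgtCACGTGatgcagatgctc
Ctsa, chr2:164833766-164833795, plus strand: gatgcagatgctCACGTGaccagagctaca
Ctsd, chr7:142388055-142388077, minus strand: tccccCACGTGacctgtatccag
Ctsd, chr7:142387908-142387937, minus strand: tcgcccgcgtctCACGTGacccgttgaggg
Ctsl, chr13:64370739-64370768, minus strand: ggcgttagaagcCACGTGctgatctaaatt
Ctsf, chr19:4855074-4855103, plus strand: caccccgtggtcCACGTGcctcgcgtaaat
A match describes letters and not binding. The log2 fold changes of Ctsa, Ctsd, Ctsl and Ctsf were -0.04, -0.06, -0.26 and -1.50, and those of the other 4 members in the promoter table were 0.42 for Ctsc, -0.35 for Ctso, -0.29 for Ctss and -0.01 for Ctsz. No member of either set was called by edgeR or DESeq2.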

How the data were processed

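RNA of sorted tumor-associated macrophages was measured in 7 libraries (3 Dicer1-deleted, 4 control). Per the labels' protocols, cDNA was amplified from 2 ng of RNA with an RNA integrity number above 7, and 50 nt read pairs were sequenced without strand marking. Per the file headers, the deposited values are counts of uniquely placed reads, expected counts that add shares of multiply placed reads, and RPKM. Bowtie2 is named, without a version, per the submitters' processing notes. The genome build, annotation and counter were not given in the sources used here. Gene IDs were matched to GENCODE M21 (GRCm38), 21798 matched and 2286 not, and 31124 unlisted values were set to 0.

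The groups were compared with edgeR 4.0.16 on the unique counts (filterByExpr, TMM, quasi-likelihood test, Benjamini-Hochberg over 16226 genes, threshold 0.05). DESeq2 1.42.0 and limma-voom 3.58.1 were alternatives, as were other scalings, filters, expected counts, read pairs, the L code as covariate and leaving out each library. DESeq2 with each library left out and RPKM over the GENCODE exon length were added after seeing the data. Intervals use the total degrees of freedom of edgeR (9.39 for the members), which add a part borrowed across genes, and cover these libraries only. The SE of edgeR fold changes was derived from the log2 fold change and the F statistic. The dispersion shared by all genes was 0.203, which corresponds to a variation between replicates of 45.1%. Reads were amplified without molecular identifiers, so depth overstates the precision. In 2301 genes with RPKM above 20 in every library, RPKM equalled unique reads over a fixed length and the expected count total within 0.5%. Copies were sought by shared words of 25 bases, at least 20 of them, between member transcripts and annotated pseudogenes listed in the files, and those aligned over most of their length are named.

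The members and lists were chosen with earlier results of these data known. The text names Dicer1, all members, list genes called by edgeR or DESeq2 and up to 4 most abundant per list, the nearest tested neighbours within 50 kb and the genes most like Ctss, Ctsb and Ctsz. Marker genes, Acp5, Ciita, overlapping genes and the pseudogenes are named outside that rule, after their values were seen. The workflow was tested on simulated data. Some items, among them the seed matches of Ctsc, are not reported here.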

Additional observations from a re-analysis of the deposited data

Results flagged for a closer look

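Ctsd in the control libraries was the 1 result marked for a sample far from the others, of 12 genes examined in the 4 controls. Control replicate 2 stood at 4228 CPM, while the other controls were at 2253 to 2475 CPM. The gap to the nearest library was 0.887 of the whole range, above Dixon's 95% critical value for 4 samples. Chance alone marks about 1 in 20 such groups. Without this library the log2 fold change of Ctsd was 0.21 in place of -0.06, and neither was called. The same library was the highest of the 7 for Ctsb, at 11669 CPM, and for Ctsl, at 3149 CPM. It was also the highest for Ctss, at 9494 CPM, and for Ctsa, at 1544 CPM.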

How the results depend on the processing

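No paired analysis was possible because the replicate numbers follow the order of deposit and mark no shared animal, litter or day. No member was called by edgeR or limma-voom under any setting run. All genes called, 4 in the main analysis, became 42 without a count filter, 1 with a filter of 10 CPM in 3 libraries, 397 in DESeq2, 2 in limma-voom and 0 with the L code as covariate, and 0 to 3 with 1 library left out. The number of members called was 1 in DESeq2 (Ctsh) and 0 to 2 in DESeq2 with 1 library left out. The 2 were Ctsh and Ctsf without Dicer1-deleted replicate 3. The share of all genes called in those DESeq2 fits was not counted. The number of members without overlap ranged from 1 to 3 with 1 library left out, with fewer libraries to overlap. The share of all genes without overlap in the same fits was 11.7% to 21.2%. Ctsh was among the members without overlap each time. The members' median log2 fold change ranged from -0.19 to -0.05 over the other settings and from -0.14 to 0.02 with 1 library left out. Ctsh, Ctsc, Ctsl, Ctss and Ctsf kept the sign of their log2 fold change in all fits run, and Ctsf was not tested with the filter of 10 CPM. Values near 0 changed sign: Ctsz was 0.01 with DESeq2 size factors, 0.0086 in DESeq2 and 0.0835 with the L code as covariate. With 1 library left out, in edgeR or DESeq2, the log2 fold changes ranged from -0.15 to 0.068 for Ctsa, -0.18 to 0.12 for Ctsb, -0.19 to 0.21 for Ctsd, -0.65 to 0.022 for Ctso and -0.18 to 0.10 for Ctsz. The cause of these shifts was not tested.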
